A study of Bos taurus with 9 samples.

Results

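The plasminogen activator system was represented by 4 genes, selected by symbol from the 20679 genes in the deposited tables. PLAU encodes urokinase-type plasminogen activator (uPA), PLAT encodes tissue-type plasminogen activator (tPA), PLAUR encodes the uPA receptor (uPAR), and SERPINE2 encodes protease nexin-1, a serpin that inhibits uPA, tPA and thrombin. Their expression was compared in fragments of bovine uterine glands that had been kept for 5 days in Matrigel, a basement membrane gel. Control cultures without EGF formed cysts (CYST, n = 3). Cultures with EGF formed uterine gland-like (UG-LIKE) structures in Matrigel alone (MAT, n = 3) or in Matrigel supplemented with type I collagen (MAT + COL, n = 3). All cultures received the same medium with bovine serum albumin, insulin, transferrin, selenite, ascorbic acid and gentamycin. The fragments were isolated by collagenase digestion from abattoir uteri with a corpus luteum, so each library represents a pool of hand-picked fragments rather than a cell line.

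Both activators are serine proteases that cleave the circulating zymogen plasminogen into plasmin, a broad protease that degrades fibrin, laminin and fibronectin and activates latent metalloproteinases. uPA acts mainly at the cell surface, where uPAR, a receptor held by a glycolipid anchor, concentrates it, while tPA is best known for fibrin-bound activity. Serpins block the activators by forming covalent complexes with them, and the complexes are cleared by receptors of the LDL receptor family. In endometrium and other glandular tissues the system is known for remodelling of the matrix around epithelium, and growth factor signaling through ERK is a well-known inducer of uPA and uPAR in epithelial cells.

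The 4 genes lie on different chromosomes of the ARS-UCD2.0 assembly, and in the deposited annotation none of them overlaps another gene. PLAU (ENSBTAG00000005947) spans 29793769 to 29799841 on the plus strand of chromosome 28. PLAT (ENSBTAG00000001244) spans 37053715 to 37078110 on the minus strand of chromosome 27. PLAUR (ENSBTAG00000013125) is on the minus strand of chromosome 18, from 51865095 to 51878396. SERPINE2 (ENSBTAG00000008717) is on the minus strand of chromosome 2, from 112087763 to 112158242. All 4 are protein-coding genes, and the values below count reads over whole genes, without separating exons or isoforms.

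Total counts per library ranged from 6568968 to 17948600, and MAT replicate 1 was the shallowest library. All 7 epithelial markers examined were detected in each library. Their summed TPM (a level corrected for gene length and for the library total) was 19118 to 21883 in CYST, 31204 to 48594 in MAT and 31417 to 42939 in MAT + COL, so the EGF groups lay above the cysts. Most of this sum came from the keratin genes KRT8, KRT19 and KRT7, which reached 18311, 23887 and 5288 TPM. Each other epithelial marker reached at most 865.4 TPM. The 8 stromal markers were also detected in each library, with summed TPM of 2225 to 4798, 1191 to 3742 and 2197 to 4249 in the same order, and those groups overlapped. The 4 smooth muscle markers summed to 140.5 to 179 TPM in CYST, 38.0 to 83.5 in MAT and 70.2 to 89.3 in MAT + COL. The 5 endothelial markers summed to at most 28.5 TPM and the 5 leukocyte markers to at most 48.3 TPM in any library. CDH5, PTPRC and CSF1R were at 0 in 1 library each, and CD3E was at 0 in 6 of the 9. PLAU, PLAT and SERPINE2 are also made by stromal, endothelial and myeloid cells. In such bulk libraries fewer cells of a type and less RNA per cell cannot be told apart.

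PLAT and PLAU were among the most abundant transcripts of the cultures, and their order differed between cysts and UG-LIKE structures. PLAT ranked 90th by mean TPM of the 20679 genes in CYST and PLAU ranked 133rd. In MAT, PLAU ranked 59th and PLAT 111th, and in MAT + COL they ranked 65th and 108th. PLAUR was next, at rank 673 in CYST, 520 in MAT and 569 in MAT + COL. SERPINE2 was far lower, at ranks 6455, 5307 and 5794. Within each of the 9 libraries PLAT exceeded PLAUR, by 2.39-fold to 7.57-fold in TPM, and PLAUR exceeded SERPINE2, by 6.98-fold to 67.7-fold. PLAU and PLAT were the only neighbours in this order whose TPM changed places between libraries.

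**Figure D1:**
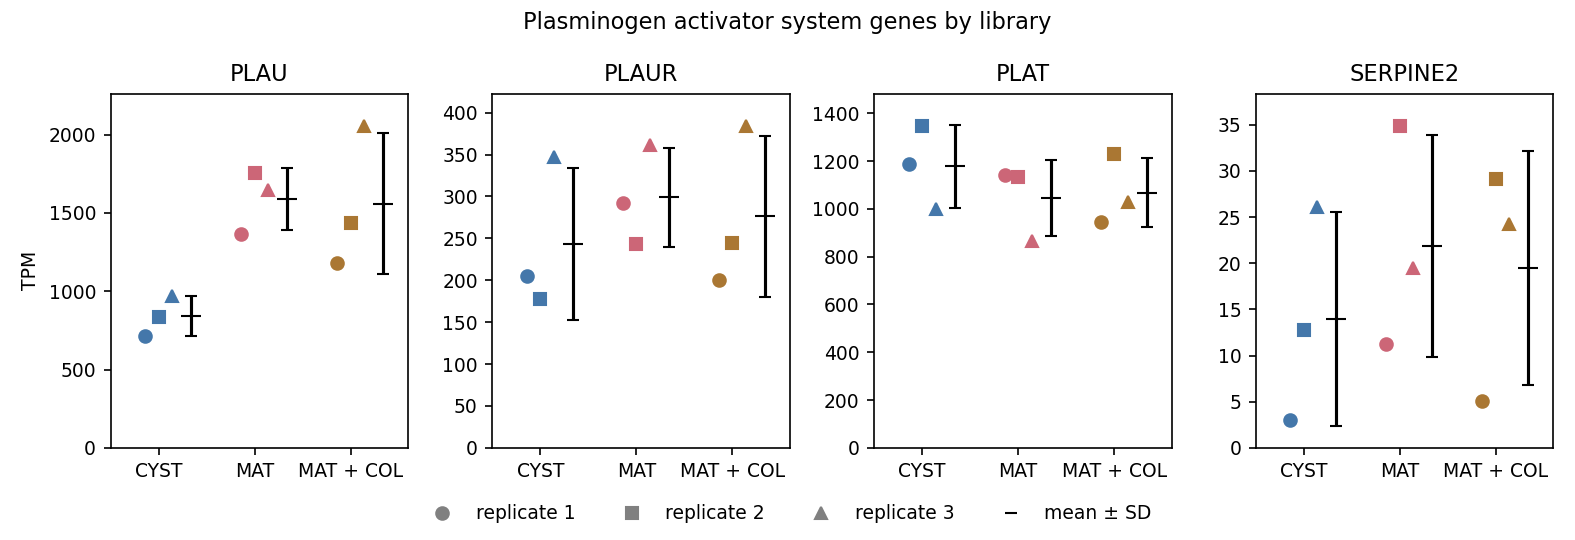
TPM (linear axis from 0) of PLAU, PLAUR, PLAT and SERPINE2 in the 3 culture conditions. Each symbol is a library, its shape gives the replicate number, and the black mark is the mean ± SD (n = 3). All PLAU values with EGF, from 1179 to 2057 TPM, lie above the highest cyst at 968 TPM, while the groups overlap for the other genes.

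PLAU was higher in UG-LIKE structures than in cysts. The TPM of PLAU was 715, 839 and 968 in CYST replicates 1, 2 and 3, and 1366, 1753 and 1645 in MAT replicates 1, 2 and 3. No MAT library overlapped a CYST library. The group means were 840.3 ± 127 TPM (SD, n = 3) in CYST and 1588 ± 199 TPM (SD, n = 3) in MAT. Each same-numbered pair showed the same direction, with MAT exceeding CYST by 1.91-fold, 2.09-fold and 1.70-fold in replicates 1, 2 and 3.

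In the comparison across all genes, PLAU had a Log2FC of 0.88 (standard error, SE, 0.24, 95% interval 0.33 to 1.44) in MAT against CYST, which is a fold of 1.85. Its adjusted p was 0.0933 by edgeR's quasi-likelihood test without a replicate block, so the difference did not pass the threshold of 0.05. With the replicate number as a block it passed, with a Log2FC of 0.91 (SE 0.18, 95% interval 0.48 to 1.34) and an adjusted p of 0.0256 from edgeR. PLAU was the single member of the 4 that passed with the block, where 10.6% of the 12074 genes tested did, and none of the 4 passed without it, where 1.79% of all genes did. It was also the single member whose groups did not overlap, a condition met by 23.7% of all genes tested, close to the share of 1 member in 4. Without CYST replicate 3 the Log2FC was 1.13, with an edgeR adjusted p of 0.0474 and no block. With any other single library left out, the adjusted p from edgeR was 0.159 to 0.26. The summed epithelial markers, mostly keratin transcripts, were likewise higher in each MAT library than in each CYST library. The summed smooth muscle markers were lower, and the part of both sums in the PLAU values was not tested. With a Log2FC under 1, PLAU did not meet the size criterion that the study set for DEGs in either of these fits.

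PLAT, the other activator, did not pass the test. Its TPM was 1186, 1348 and 1000.2 in CYST replicates 1 to 3 and 1141, 1132 and 864 in MAT. The ranges overlapped, although the MAT library was the lower in each same-numbered pair. The Log2FC was -0.18 (SE 0.18, edgeR adjusted p = 0.617), and its 95% interval of -0.58 to 0.23 excluded a change of PLAT as large as the estimate for PLAU. PLAT was also the steadiest member. The SD of its log2 CPM (counts scaled to the TMM-normalized library total) over the 9 libraries was 0.175, at percentile 5.30 of the 12858 genes kept for all 3 groups.

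**Figure D2:**
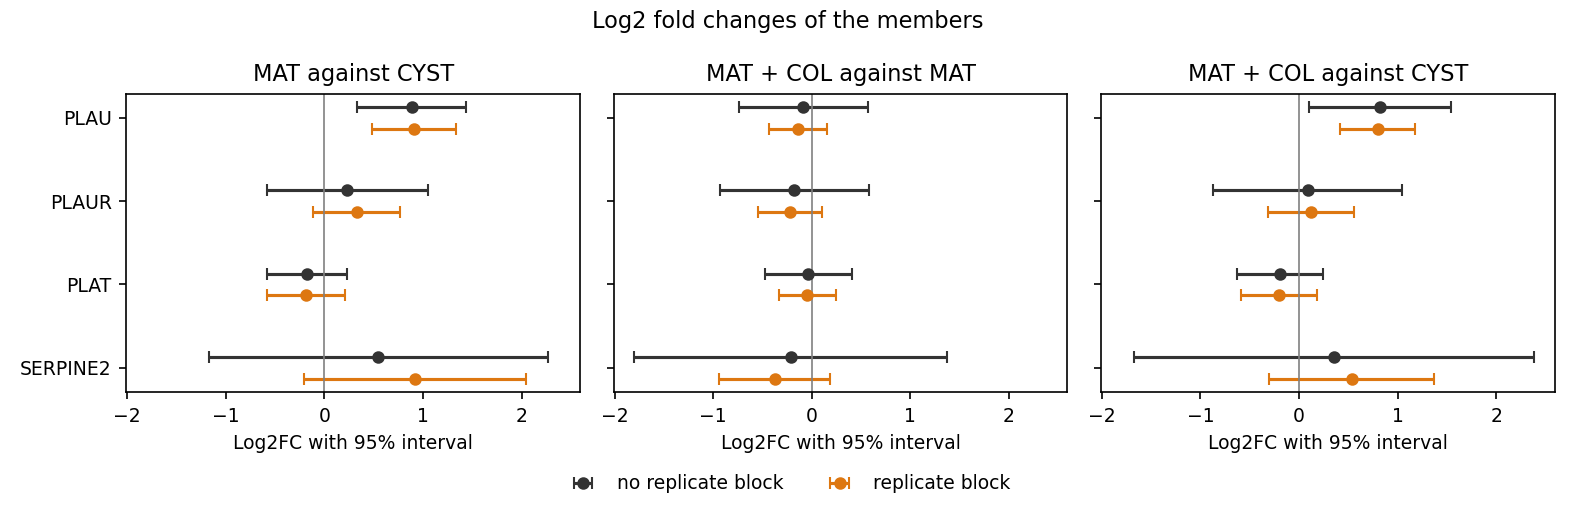
Log2FC of each member in the 3 comparisons, with 95% intervals, from edgeR without (black) and with (orange) the replicate number as a block. The PLAU intervals against CYST lie above 0 in both fits, and all other intervals include 0.

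The balance between the activators was examined as the ratio of PLAU to PLAT TPM within a library. This ratio was 0.603, 0.622 and 0.967 in CYST replicates 1 to 3. It was 1.20, 1.55 and 1.90 in MAT, and 1.25, 1.17 and 2.00 in MAT + COL. PLAT was therefore the more abundant activator transcript in each cyst library and PLAU in each library with EGF. PLAU accounted for 41.7 ± 6.47% (SD, n = 3) of the summed TPM of both activators in CYST, 60.3 ± 5.55% (SD, n = 3) in MAT, and in MAT + COL the share was 58.7 ± 6.93% (SD, n = 3). The mean log2 ratio was higher by 1.09 in MAT than in CYST and by 1.00 in MAT + COL than in CYST. Each difference had a two-sided exact permutation p of 0.1, the smallest that 3 libraries against 3 allow, and an adjusted p of 0.4 over the 12 ratio tests. The summed TPM of both activators was 2018 ± 150 (SD, n = 3) in CYST, 2634 ± 217 (SD, n = 3) in MAT, while MAT + COL had 2626 ± 482 (SD, n = 3).

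**Figure D3:**
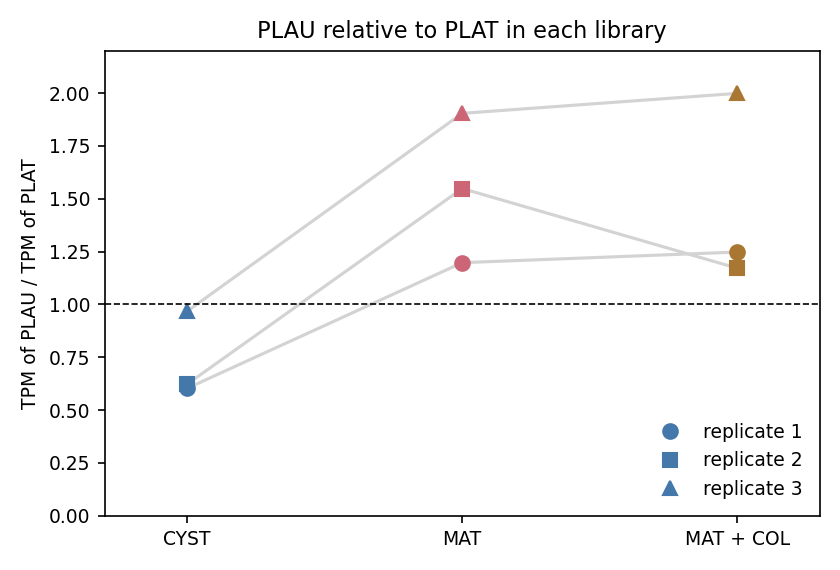
Ratio of PLAU to PLAT TPM in each library (linear axis from 0), with grey lines joining libraries of the same replicate number and a dashed line where both genes are equal. The 3 cysts lie between 0.603 and 0.967 and the 6 libraries with EGF between 1.17 and 2.00.

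PLAUR, the receptor, followed the replicate number more than the culture condition. Its TPM was 205, 178 and 347 in CYST replicates 1 to 3, 292, 243 and 361 in MAT, and 200.3, 245 and 384 in MAT + COL. Replicate 3 was the highest library of each group, and the groups overlapped throughout. The Log2FC of PLAUR in MAT against CYST was 0.23 (SE 0.36, edgeR adjusted p = 0.765), with a 95% interval of -0.59 to 1.05. With the block it was 0.33 (SE 0.19, edgeR adjusted p = 0.311). MAT exceeded CYST by 1.42-fold, 1.37-fold and 1.04-fold in replicates 1, 2 and 3. The summed stromal markers were also highest in replicate 3 of each group (4798, 3742 and 4249 TPM in CYST, MAT and MAT + COL), and their part in the PLAUR values was not tested.

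The ratio of PLAU to PLAUR, the ligand relative to its receptor, was 3.48, 4.71 and 2.79 in CYST replicates 1 to 3 and 4.67, 7.20 and 4.56 in MAT. In MAT + COL it was 5.89, 5.88 and 5.35, the narrowest spread of the 3 groups. The mean log2 ratio was higher by 0.58 in MAT than in CYST (two-sided exact permutation p = 0.3, adjusted p = 0.9). It was higher by 0.67 in MAT + COL than in CYST, where the groups did not overlap (two-sided exact permutation p = 0.1, adjusted p = 0.4).

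SERPINE2, the inhibitor, was the most variable member. Its TPM was 3.03, 12.8 and 26.1 in CYST replicates 1 to 3, 11.3, 34.9 and 19.5 in MAT, and 5.07, 29.1 and 24.2 in MAT + COL. Replicate 1 was the lowest library of every group, with 28, 81 and 94 reads counted on the gene in CYST, MAT and MAT + COL, against 229 to 669 in the other 6 libraries. Replicate 1 was also the shallowest library of CYST (8424028 counts in all) and of MAT (6568968), while in MAT + COL it held 17808510 counts, between the other two. The summed stromal markers in replicates 1, 2 and 3 were 2225, 3045 and 4798 TPM in CYST, 2092, 1191 and 3742 in MAT, and 2197, 2381 and 4249 in MAT + COL. They were lowest in replicate 1 of CYST and of MAT + COL and in replicate 2 of MAT, and the part of depth and of stromal markers in the SERPINE2 values was not tested.

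The Log2FC of SERPINE2 in MAT against CYST was 0.55 (SE 0.74, edgeR adjusted p = 0.733), with an interval of -1.17 to 2.26. With the block it was 0.92 (SE 0.48, 95% interval -0.20 to 2.05, edgeR adjusted p = 0.263). MAT exceeded CYST in replicates 1 and 2, by 3.72-fold and 2.73-fold, whereas in replicate 3 the ratio was 0.745. Leaving out 1 library at a time without the block gave SERPINE2 a Log2FC of 0.058 (without MAT replicate 2) to 1.56 (without CYST replicate 3). Activator transcripts exceeded SERPINE2 in all libraries, by 37.0-fold to 236-fold for PLAU and by 32.4-fold to 391-fold for PLAT. No difference between groups in the PLAU to SERPINE2 or PLAT to SERPINE2 ratio had an exact permutation p under 0.4.

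Addition of collagen I to EGF cultures was followed by no detectable change of any member. PLAU had 1179, 1439 and 2057 TPM in MAT + COL replicates 1 to 3, a mean of 1558 ± 451 (SD, n = 3), which spanned the MAT values. PLAT had 945, 1229 and 1029 TPM in MAT + COL, and its mean of 1068 ± 146 (SD, n = 3) compared with 1046 ± 157 (SD, n = 3) in MAT. Without the block the Log2FC in MAT + COL against MAT was -0.085 for PLAU (95% interval -0.74 to 0.57), -0.035 for PLAT (-0.47 to 0.41), -0.17 for PLAUR (-0.93 to 0.59) and -0.21 for SERPINE2 (-1.80 to 1.37). All 4 had an edgeR adjusted p of 1. With the block the intervals narrowed, to -0.43 to 0.16 for PLAU, -0.33 to 0.25 for PLAT, -0.55 to 0.10 for PLAUR and -0.94 to 0.19 for SERPINE2, and the adjusted p was 0.955 to 0.979.

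By edgeR, collagen I gave 0 calls among 12470 genes (0%) at an adjusted p of 0.05 in either fit, and DESeq2 also called 0. An unadjusted edgeR p under 0.05 was found for 51 genes without the block and 618 with it. Where no gene differs, a fraction of about 0.05 of the genes tested is expected under that unadjusted threshold. The groups overlapped for all 4 members, where 3.57% of all genes had groups that did not. PLAU was lower with collagen I in replicates 1 and 2 (ratios of 0.863 and 0.821) and higher in replicate 3 (1.25), and SERPINE2 showed the same signs, with ratios of 0.450, 0.833 and 1.24.

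MAT + COL was also compared with the same CYST libraries, so that its values share their controls with those of MAT. The Log2FC of PLAU was 0.82 (SE 0.31, 95% interval 0.10 to 1.55, edgeR adjusted p = 0.181). With the block it was 0.80 (SE 0.16, 95% interval 0.42 to 1.17, edgeR adjusted p = 0.0441), again the single member that passed, where 5.26% of 12509 genes passed with the block and 1.49% without it. MAT + COL exceeded CYST by 1.65-fold, 1.72-fold and 2.13-fold in replicates 1, 2 and 3, and the groups did not overlap, which held for 24.7% of all genes. Without MAT + COL replicate 3 the Log2FC was 0.51. For PLAT the Log2FC was -0.19 (SE 0.19), for PLAUR 0.089 (SE 0.41) and for SERPINE2 0.36 (SE 0.87), with adjusted p from edgeR of 0.598, 0.928 and 0.855.

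The members thus differed in what their variation followed. The sum of squares of log2 CPM over the 9 libraries was divided between culture condition, replicate number and a remainder. For PLAU, condition took 63.2% and replicate number 31.3%. For PLAUR the shares were 9.8% and 77.2%, and for SERPINE2 11.4% and 73.3%. For PLAT they were 23.9% and 32.0%, with 44.1% in the remainder of a small total. The medians over all 12858 genes were 29.9% for condition and 32.0% for replicate number, and 92.7% of these genes had a smaller replicate share than PLAUR and 90.2% a smaller one than SERPINE2.

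**Figure D4:**
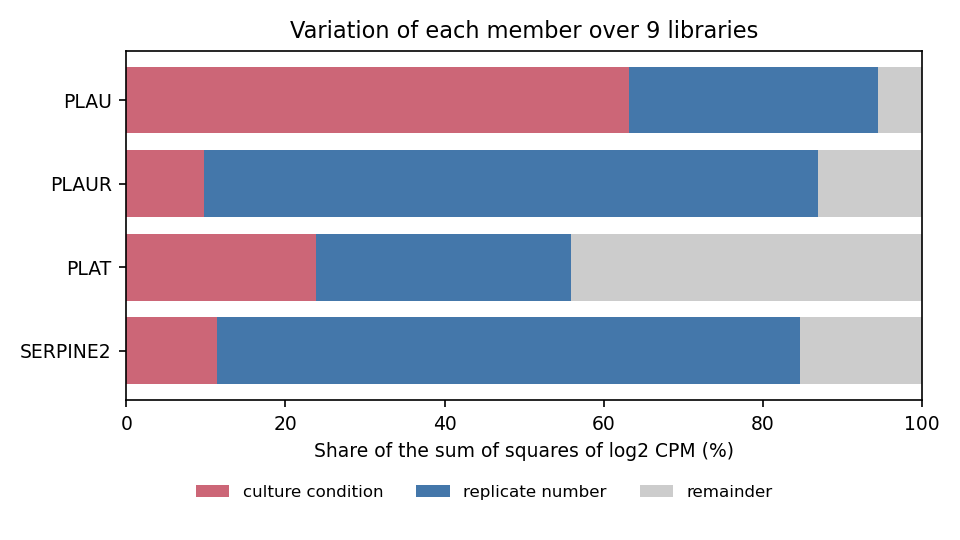
Share (%) of the sum of squares of log2 CPM over the 9 libraries that followed culture condition, replicate number or neither, for each member. Condition takes 63.2% for PLAU, and replicate number takes 77.2% for PLAUR and 73.3% for SERPINE2.

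Once the group means were removed, PLAU and PLAUR still varied together, with a Pearson correlation of 0.85 between their deviations over the 9 libraries, and PLAU and SERPINE2 likewise, at 0.83. For PLAUR and PLAT it was 0.045. These are descriptions over libraries that share replicate numbers.

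The genes with the most similar patterns over the 9 libraries were sought among 8758 genes with a mean log2 CPM above 3. For PLAU these were LGALS3, which encodes the lectin galectin-3 (Pearson r = 0.98), ARHGEF37 (r = 0.98) and ECM1, which encodes extracellular matrix protein 1 (r = 0.97). The order of the 9 libraries was identical for PLAU and LGALS3 (Spearman rho = 1), whose TPM ranged from 394 to 2247. For PLAUR the genes were MAEA (r = 0.97), ALDOA, which encodes the glycolytic enzyme aldolase A (r = 0.96), and ZFYVE21 (r = 0.96). PLAT had few similar genes, with PHIP at r = 0.94, SPAG7 at 0.92 and KIF18A, a mitotic kinesin gene, at 0.88. For SERPINE2 they were ENSBTAG00000070890, for which the files list no symbol (r = 0.97), ARF1 (r = 0.95) and GNB4 (r = 0.94). The number of genes with r above 0.9 was 103 for PLAU, 40 for PLAUR, 19 for SERPINE2 and 2 for PLAT. The correlation of ARF1 with SERPINE2 was 0.42 on log2(TPM + 1) in place of log2 CPM, and that of KIF18A with PLAT was 0.57 as Spearman's rho. Spearman's rho was also lower for ENSBTAG00000070890 with SERPINE2, at 0.7, and for SPAG7 with PLAT, at 0.8.

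The substrate of the system was not detected. PLG, which encodes plasminogen and is made chiefly in liver, had 0 reads in all 9 libraries, and so had VTN, which encodes the matrix protein vitronectin, a ligand of uPAR. A count of 0 allows up to 3 reads per library. SERPINB2, for plasminogen activator inhibitor-2, was not analysed here. Of 7 genes of the substrate and other inhibitors listed in the files, 3 had enough reads to be tested, and none of these passed in either fit. Their median Log2FC was -0.82, against 0.012 for all genes.

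Proteins that bind plasminogen at the cell surface were abundant, with no difference detected. ANXA2 encodes annexin A2, which with its partner S100A10 forms a surface receptor for tPA and plasminogen. ANXA2 had 8372 ± 921 TPM (SD, n = 3) in CYST and 8714 ± 533 TPM (SD, n = 3) in MAT, and S100A10 had 2869 ± 220.5 and 3075 ± 300.2 TPM (SD, n = 3 each). None of the 4 genes of this list, which also holds PLGRKT and ENO1, passed in either fit, and their Log2FC in MAT against CYST ranged from -0.11 to 0.082.

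LRP2 and LRP1, receptors of the LDL receptor family, differed in opposite directions. LRP2, which encodes megalin, an apical endocytic receptor, fell from 7.03 ± 3.93 TPM (SD, n = 3) in CYST to 0.893 ± 0.319 TPM (SD, n = 3) in MAT. Its Log2FC was -2.90 (SE 0.49, edgeR adjusted p = 0.0403, or 0.0192 under the block). LRP1, the principal receptor for uptake of activator and serpin complexes, rose under the block. Its TPM was 9.06 ± 4.88 (SD, n = 3) in CYST and 20.8 ± 1.86 (SD, n = 3) in MAT, with a Log2FC of 1.23 (SE 0.30, edgeR adjusted p = 0.0732, or 0.0177 under the block). Of the 15 genes tested in this list of receptors and surface partners, 1 fell without the block, and 3 rose and 1 fell with it. Over all genes tested, 1.79% passed without the block and 10.6% with it. The other genes that rose were the integrin subunits ITGAV and ITGB6, with adjusted p of 0.00957 and 0.00534 from edgeR with the block and 0.0805 and 0.0766 without it. The median Log2FC of the list was 0.18.

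Among other surface proteases, coagulation genes and Kunitz-type inhibitors, 1 of 14 genes tested rose without the block and 4 rose with it, and none fell in either fit. The shares of all genes that passed, in either direction, were 1.79% without the block and 10.6% with it. TFPI, which encodes tissue factor pathway inhibitor, rose from 47.5 ± 16.3 TPM (SD, n = 3) in CYST to 136 ± 37.1 TPM (SD, n = 3) in MAT, with a Log2FC of 1.51 (SE 0.28, edgeR adjusted p = 0.0462, or 0.00607 under the block). SPINT2, a membrane-anchored inhibitor of matriptase and related proteases, rose with the block (Log2FC 0.74, edgeR adjusted p = 0.0307, against 0.0781 without it). F2R, the gene of thrombin receptor PAR1, and TMPRSS4, a transmembrane serine protease gene, also rose only in the fit with the block, with adjusted p of 0.0168 and 0.0336 from edgeR against 0.212 and 0.108. The median Log2FC of the list was 0.36.

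Of the genes whose products plasmin or the activators are known to process, 9 were tested in MAT against CYST. MMP13, which encodes collagenase 3, rose from 483 ± 124 TPM (SD, n = 3) in CYST to 2976 ± 917 TPM (SD, n = 3) in MAT, with a Log2FC of 2.61 (SE 0.30, edgeR adjusted p = 0.0191, or 0.0035 under the block). MMP3 and MMP9, for stromelysin-1 and gelatinase B, fell with the block, with Log2FC of -1.35 and -1.46 and adjusted p of 0.00725 and 0.00756 from edgeR, against 0.0619 and 0.155 without it. The list thus held 1 gene that rose in both fits and 2 that fell in the fit with the block. Across all genes tested, 1.79% passed without the block and 10.6% with it. The median Log2FC of the list was -0.47, against 0.012 for all genes. No gene of the lists passed in MAT + COL against MAT, in either fit.

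**Figure D5:**
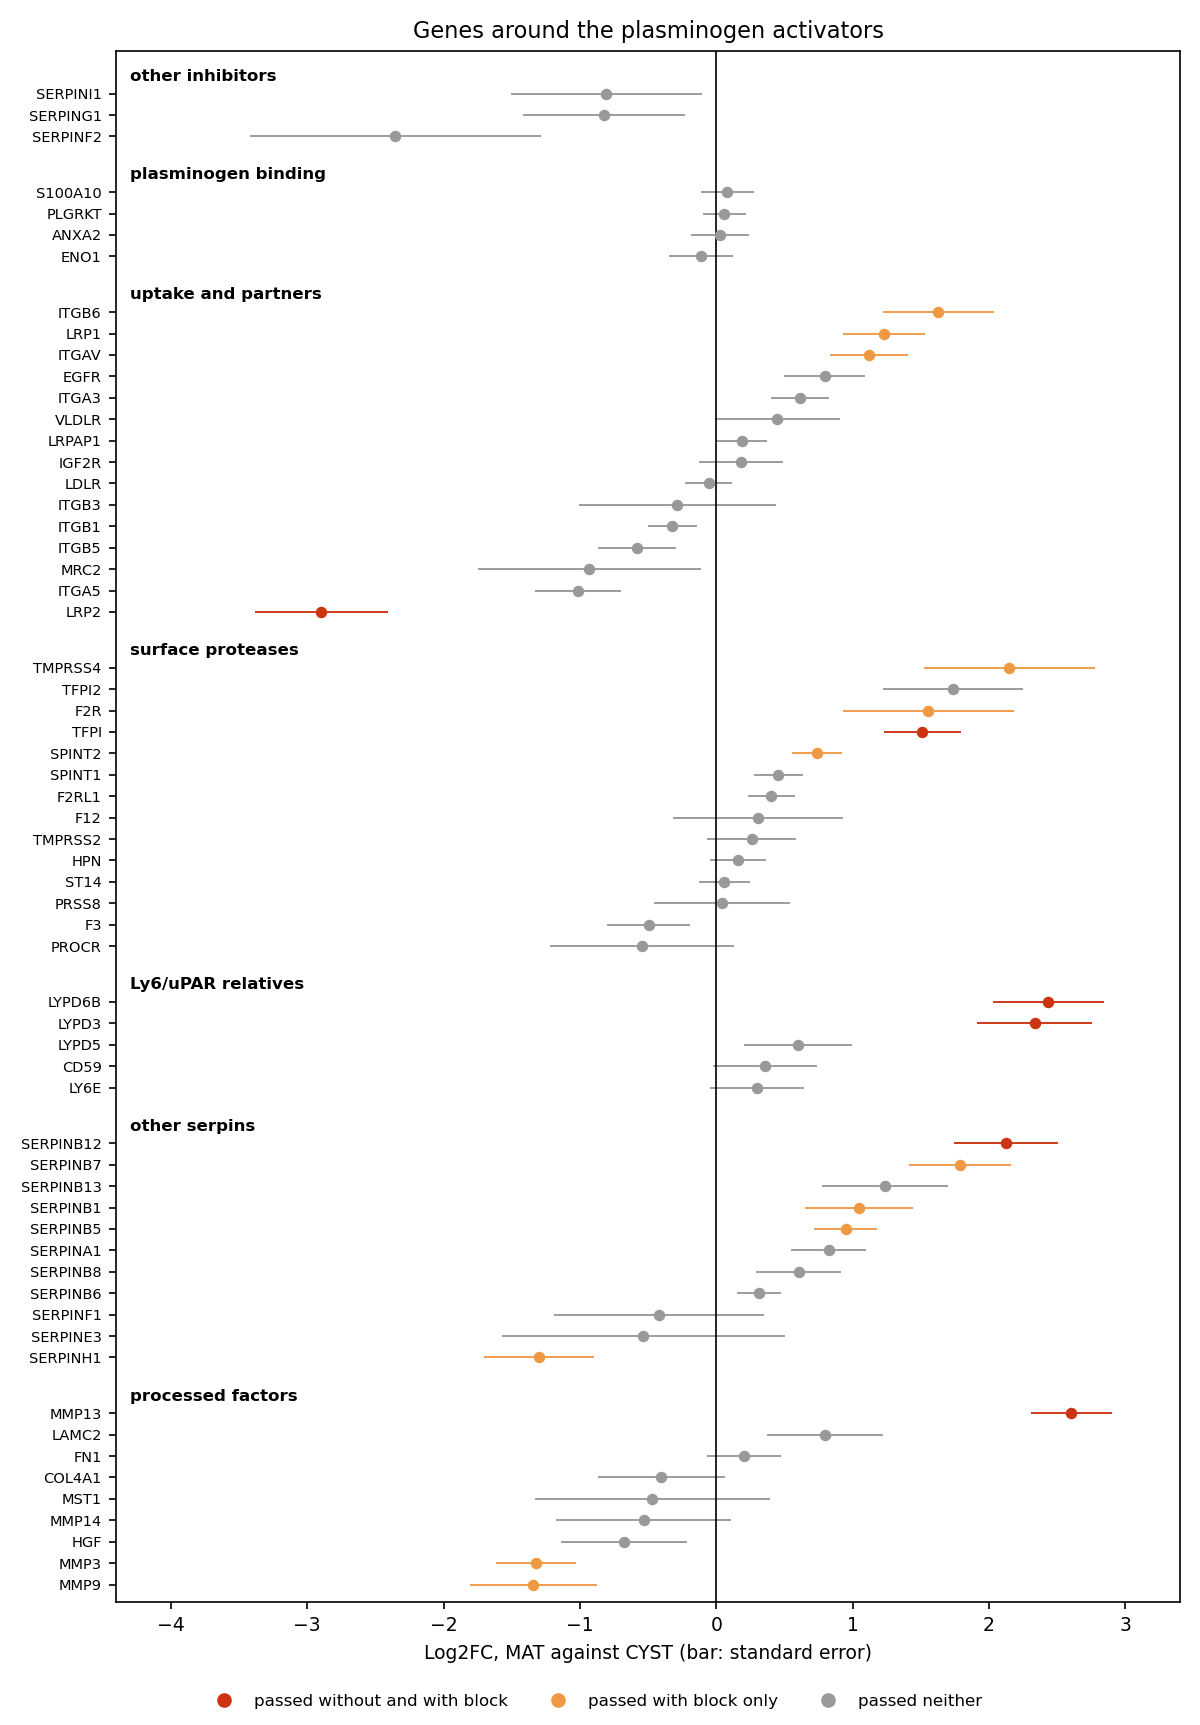
Log2FC (MAT against CYST, without the replicate block) of the tested genes of 7 lists around the plasminogen activators, with standard errors. Red points passed an adjusted p of 0.05 without and with the block, orange points with it only, and SERPINB9, which had at most 1 read in any MAT library, is not drawn.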

How the data were processed

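RNA of 9 cultures (3 per group) was sequenced from SMART-Seq libraries. Per the study's methods, trimmed reads were mapped to ARS-UCD2.0 with CLC Genomics Workbench at its default settings. The authors deposited raw counts per gene and TPM, which corrects counts for gene length and library total. The annotation release and strand setting are not given in the sources used here.

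Counts of genes passing filterByExpr (minimum count of 10) were TMM-normalized and compared by edgeR 4.0.16 (glmQLFit and glmQLFTest, R 4.3.3) using the 6 libraries of the groups compared, and p-values were adjusted by Benjamini-Hochberg over all genes tested. The standard error is the Log2FC over the root of F. Ratios used log2(TPM + 0.5) and exact permutation. Replicate numbers come from the sample titles, which name no animal, and the deposited column names number some libraries differently. The study's text speaks of individuals for the MAT and MAT + COL libraries, without tying them to these numbers. Same-numbered libraries deviated together from their group means (correlation across genes of 0.310, 0.407 and 0.377 in MAT against CYST, 0.465 to 0.673 in MAT + COL against MAT and 0.293 to 0.361 in MAT + COL against CYST), so the fit with a replicate block is given beside a result where it changes the call. The labels do not say that libraries of a group came from separate animals. If they did not, p-values measure only the spread between these samples. Counts lack molecular identifiers, so floors (3 reads) cover counting error only.

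Members and gene lists were chosen with earlier results of these data known. Genes named from the lists were those with an adjusted p under 0.05 in MAT against CYST in either fit, at most 4 per list by smallest p without the block, with PLG and SERPINB2. 1 listed gene is not reported here and was left out of its list's count and median. Others named (VTN, ANXA2, S100A10, PLGRKT, ENO1, SERPINB1 and SERPINH1) were chosen after their values were seen. Similar genes were the 3 with the highest Pearson correlation per member. The edgeR test without the block was checked on simulated data with independent libraries, so that check does not cover the fit with the block. Alternatives used DESeq2 1.42.0, limma 3.58.1, RLE factors, no filter, all 9 libraries, other pseudocounts and each library left out. Figures were drawn with matplotlib 3.10.9.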

Additional observations from a re-analysis of the deposited data

How the results depend on the processing

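The direction of the PLAU difference from CYST was the same under every alternative run. PLAU in MAT against CYST, which had an adjusted p of 0.0933 by edgeR, passed the threshold with DESeq2 (Log2FC 0.90, adjusted p = 0.0106), with the replicate block (0.91), with limma on log2(TPM + 1) (0.92, adjusted p = 0.0497), and with the block in a fit of all 9 libraries (0.96, adjusted p = 0.0063), the last chosen after seeing the data. PLAU did not pass with limma on log2(TPM + 0.1) (adjusted p = 0.0506). By edgeR without the block it also failed with RLE factors (adjusted p = 0.0931), no filter (0.0965) and all 9 libraries (0.099). Leaving out 1 library gave a Log2FC of 0.78 to 1.13. The adjusted p by edgeR was 0.0474 without CYST replicate 3, and 0.159 to 0.26 without any other library. In MAT + COL against CYST, PLAU passed with the replicate block (0.80) and with the block in all 9 libraries (0.82), and leaving out 1 library gave 0.51 to 1.06. PLAU passed under no other alternative there, with adjusted p of 0.0853 by DESeq2 and 0.0932 by limma on log2(TPM + 1). The replicate block changed the call of no other member. The number of genes called was more sensitive. In MAT against CYST it was 216, against 1278 with DESeq2, 1277 with the replicate block, 580 with all 9 libraries, 2118 with both, and 5 to 267 with 1 library left out, with 5 without CYST replicate 2. In MAT + COL against CYST it was 186, against 1500, 658, 601, 2035 and 3 to 186 in the same order, with 3 without MAT + COL replicate 2, and for collagen I it stayed at 0. Values near 0 changed sign. PLAT in MAT + COL against MAT was 0.033 with limma at either pseudocount. With 1 library left out, this comparison gave -0.39 to 0.12 for PLAU, -0.54 to 0.053 for PLAUR, -0.15 to 0.092 for PLAT and -0.60 to 0.28 for SERPINE2. MAT against CYST gave 0.036 to 0.74 for PLAUR and 0.058 to 1.56 for SERPINE2, and MAT + COL against CYST gave -0.29 to 0.59 for PLAUR and -0.12 to 1.36 for SERPINE2. Among log2 ratios, PLAU to SERPINE2 in MAT against CYST was -0.039 with a pseudocount of 0.1. With 1 library left out it was -0.54 to 0.70 there, -0.29 to 0.77 for collagen I and -0.28 to 0.99 in MAT + COL against CYST. PLAT to SERPINE2 was -0.30 to 0.84 and -1.47 to 0.11 in the latter 2 comparisons. For collagen I, PLAU to PLAT was -0.33 to 0.070 and PLAU to PLAUR -0.025 to 0.30. In all, 146 of 168 Log2FC values of the members and 92 of 108 ratio differences kept their direction and side of the threshold, and the cause of the other changes was not tested. The 3 libraries per group limit the precision, most of all for SERPINE2, which had as few as 28 reads in a library.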

Other observations

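Some other members of the families of uPAR and SERPINE2 differed between CYST and MAT. LYPD3, which encodes a surface protein with the same type of Ly6/uPAR domains as uPAR, rose from 12.5 ± 3.47 TPM (SD, n = 3) in CYST to 64.7 ± 25.8 TPM (SD, n = 3) in MAT, with a Log2FC of 2.34 (SE 0.42, edgeR adjusted p = 0.045, or 0.00216 under the block). LYPD6B rose from 4.09 ± 0.935 to 22.9 ± 7.65 TPM (SD, n = 3 each), with a Log2FC of 2.44 (SE 0.41, edgeR adjusted p = 0.0401, or 0.0168 under the block). Of the 5 relatives tested among 8 listed, these were the genes that passed, the same number in both fits, and the median Log2FC was 0.60. Of all genes tested, 1.79% passed without the block and 10.6% with it. PLAUR itself did not pass. In MAT + COL against CYST, 1 of the 5 relatives tested rose without the block and 2 rose with it. There, 1.49% of all genes passed without the block and 5.26% with it.

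Of 12 other serpins tested in MAT against CYST, 1 rose and 1 fell without the block, and 4 rose and 2 fell with it. The shares of all genes that passed were 1.79% and 10.6% in the same order. SERPINB12 rose from 2.35 ± 0.239 to 10.6 ± 4.36 TPM (SD, n = 3 each), with a Log2FC of 2.13 (SE 0.38, edgeR adjusted p = 0.045). SERPINB9 had 62, 39 and 17 reads in CYST replicates 1 to 3 and 0, 1 and 1 in MAT (edgeR adjusted p = 0.0413). In MAT + COL it had 25, 15 and 15 reads, not scaled for the library total. Against CYST, the MAT + COL difference did not pass (edgeR adjusted p = 0.173, or 0.147 under the block), nor did it against MAT. SERPINB7, SERPINB5 and SERPINB1 rose with the block, with Log2FC of 1.74, 0.98 and 1.19 and edgeR adjusted p of 0.0347, 0.0303 and 0.0224. SERPINH1, a collagen chaperone rather than a protease inhibitor, fell with the block, with a Log2FC of -1.35 (edgeR adjusted p = 0.0226). The median Log2FC of the list was 0.71, also with SERPINB9 set at its bound. In MAT + COL against CYST, 0 of the 12 passed without the block and 1 rose with it. The shares of all genes in that comparison were 1.49% and 5.26%.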
